A study of Homo sapiens with 28 samples.

Results

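ARID1B carrying the deletion A457_G461del was compared with ARID1B carrying the deletion Block13del in AN3CA cells, a human endometrial carcinoma line. The comparison holds 4 of the 28 libraries of the series, 2 per deletion, chosen by their construct labels and not by any measured value. All 4 measured polyadenylated RNA of cells that were given no treatment. For context, the text uses 4 libraries of cells with the empty vector, 2 with wild-type ARID1B (ARID1B WT) and 2 with a further deletion, Block9del. The labels call each construct an expressed mutant or WT form. They do not give the residues of Block13del or Block9del, nor the promoter that drove expression, whether the cells were 1 clone, or whether replicates came from separate cultures. P-values therefore set differences against the spread between replicates of all 13 groups of the series, not of the 4 compared libraries alone. Within a construct that spread may be only technical. In the empty vector group it also holds the difference between 2 pairs of libraries with unlike shares of opposite-strand reads, described below.

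ARID1B is a subunit of the canonical BAF complex (cBAF), an ATP-driven machine that moves nucleosomes and opens enhancers and promoters. Its close relative ARID1A takes the same place in the complex, so a given cBAF holds one or the other. Both proteins pair an ARID DNA-binding domain and a folded C-terminal core-binding region with long disordered stretches of low sequence complexity. The title of the study names condensate formation of this remodeller and its need for gene activation as the question, and deletions in ARID1B bear on which stretches matter.

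The coding sequence around A457_G461del is shown because the label gives its ends by residue. Of 8 ARID1B transcripts of the reference annotation with a complete coding start, 3 had alanine and glycine codons where the labels put them, among them ARID1B-203, with 2236 codons. In these the 5 deleted codons are exonic, in exon 1, at chr6:156779298-156779312 on the plus strand of GRCh38. Capitals mark the 15 deleted bases, with 60 reference bases on each side.
ARID1B-203 around the deleted codons: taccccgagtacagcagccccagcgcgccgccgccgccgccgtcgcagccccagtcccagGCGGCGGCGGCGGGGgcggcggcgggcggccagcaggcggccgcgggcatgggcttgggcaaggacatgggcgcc
The files were made on hg19 and hold no coordinates, and the sequence is that of the reference, not one read from the cells.

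RNA of ARID1B itself was higher with A457_G461del than with Block13del. In CPM, read counts scaled to a common total of gene reads per library, ARID1B stood at 2259.6 and 2213 with A457_G461del and 888 and 878 with Block13del. The difference was 2.53-fold (log2 fold change 1.34 ± 0.09, standard error; edgeR quasi-likelihood adjusted p = 2.57e-08), far beyond the spread between replicates. Both stood above the 98.0 ± 6.54 CPM (SD, n = 4) of the empty vector, by 22.8-fold and 9.01-fold, and below the 3597 ± 225 CPM (SD, n = 2) of ARID1B WT. Block9del stood lower, at 344 ± 0.277 CPM (SD, n = 2). Counted ARID1B RNA was therefore not the same with the 2 constructs. A difference in deleted sequence and a difference in level cannot be told apart in what follows. The length that Block13del removes is not given, and a shorter RNA would yield fewer reads at the same expression. Construct and endogenous ARID1B RNA are counted together, and protein levels were not analysed here.

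Depth was 24.5 and 25.5 M gene reads with A457_G461del and 19.3 and 24.5 M with Block13del, within 16.6 to 27.9 M over the series. A count of 0 in 1 of these 4 libraries allows up to 3 counts, or 0.118 to 0.156 CPM. The opposite strand held 96.9 to 97.3% of stranded gene reads in the 4 libraries. It was 98.3 to 98.4% in empty vector replicates 3 and 4 and 84.5 to 87.6% in replicates 1 and 2, so the deletions have no empty vector library of their own strand profile. In the ARID1B WT libraries it was 98.4 and 98.5%, so levels set against WT also cross strand profiles. The replicates of each deletion differed beyond sampling noise and were kept as separate samples. Chi-square per degree of freedom, near 1 for counting noise alone, was 1.32 with A457_G461del and 4.97 with Block13del. Of 10 stromal and mesenchymal markers, VIM stood at 4324 to 4644 CPM in the 4 libraries and COL1A2 at 2259 to 2438, while DCN and LUM had no read and THY1 and CDH2 did not pass 0.0415 and 0.210 CPM. All 4 erythroid markers had no read, as had the T and B cell markers CD3D and MS4A1 and the endothelial markers VWF and KDR, whereas the epithelial marker KRT18 (12.9 to 21.1 CPM) and the myeloid marker CD68 (2.15 CPM or above) were present. Of the endometrial markers PAX2 stood at 35.3 to 40.5 CPM, HOXA10 at 19.0 to 19.7 and HOXA11 at 11.7 CPM or above, while the steroid receptors ESR1 and PGR had no read and PAX8 did not pass 0.0392 CPM.

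Across the transcriptome, more genes were higher than lower with A457_G461del, and the rises were larger. Of 14220 genes tested, 779 (5.48%) differed at an adjusted p under 0.05, 510 (3.59%) higher and 269 (1.89%) lower. Rises of at least 2-fold were called for 114 genes (0.802%) and falls of that size for 4 (0.0281%), together 118 and without A457_G461del replicate 1 together 78. The median log2 fold change was 0.59 among genes that rose and -0.34 among those that fell. The count of 779 went down to 317 without A457_G461del replicate 1, 316 without A457_G461del replicate 2, 318 without Block13del replicate 1 and 359 without Block13del replicate 2. Of these, 314, 314, 310 and 339 were among the 779. It went up to 1454 in a fit of the 10 libraries with the same strand profile, and to 3058 in a fit of the 4 libraries alone, where 1539 were higher and 1519 lower. In the plot of difference against average level, most called genes above 0 are those that ARID1B WT raised.

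**Figure D1:**
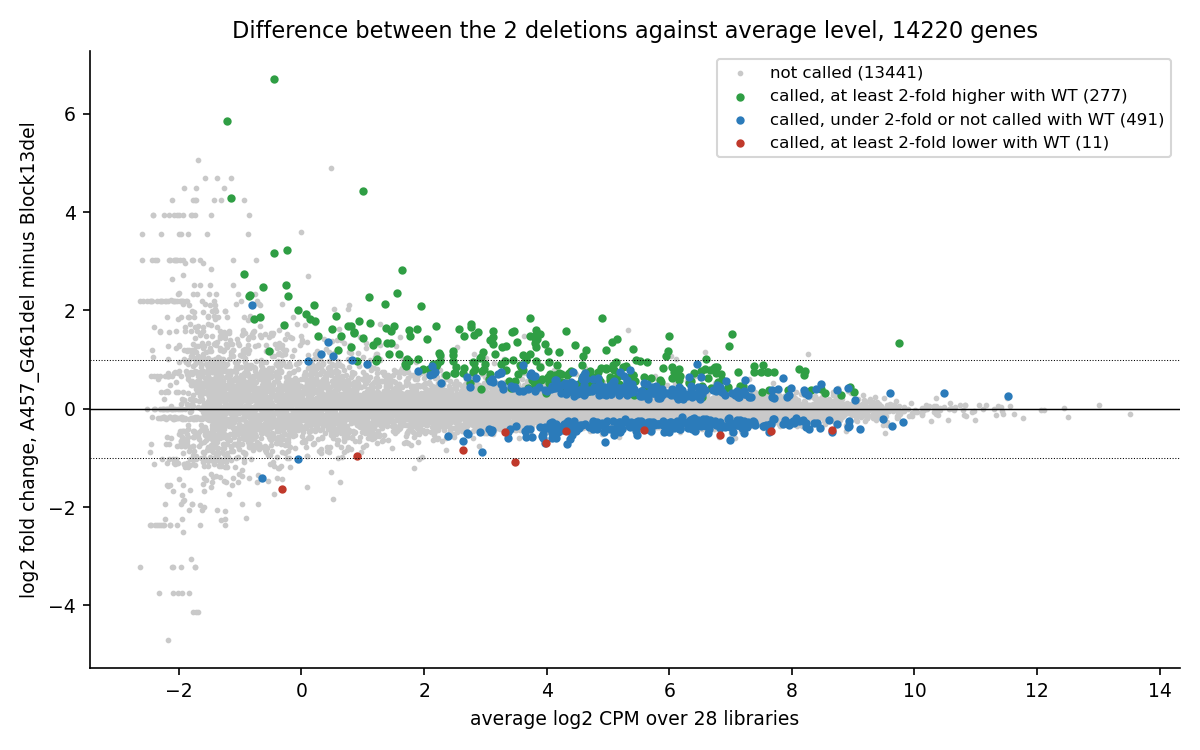
Each point is 1 of 14220 genes, with the average log2 CPM over 28 libraries on the x axis and the log2 fold change of A457_G461del minus Block13del on the y axis. Green points (277 genes) were also at least 2-fold higher with ARID1B WT than with the empty vector and all lie above 0, and dotted lines mark a 2-fold difference.

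Against the empty vector the number of called genes depended on the libraries fitted. In the fit of 28 libraries, 5545 genes were called with A457_G461del (39.0%), 2718 higher (19.1%) and 2827 lower (19.9%). With Block13del 5587 were called (39.3%), 2712 higher (19.1%) and 2875 lower (20.2%). At least 2-fold rises numbered 577 (4.06%) with A457_G461del and 333 (2.34%) with Block13del, and falls of that size 537 (3.78%) and 547 (3.85%). These comparisons share the 4 empty vector libraries and cross strand profiles. The counts went down to 3327 and 3303 genes without A457_G461del replicates 1 and 2 and to 3037 without Block13del replicate 1. With only the groups compared they were 1587 for A457_G461del and 788 for Block13del.

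The response to ARID1B WT was used to order these genes, since it comes from libraries of neither deletion. WT changed 6129 genes (43.1%) against the empty vector, 2736 higher (19.2%) and 3393 lower (23.9%). At least 2-fold, it raised 959 (6.74%) and lowered 525 (3.69%). The 959 include ARID1B itself, the expressed gene, which is also among the rises counted below. Of the 959, 277 rose (28.9%) and 0 fell with A457_G461del relative to Block13del, against 3.59% and 1.89% over all genes. At an unadjusted p under 0.05 the same counts were 472 and 2, and by DESeq2 293 and 0. The median log2 fold change of the 959 was 0.70, that of all genes tested 0.0, and 850 of the 959 (88.6%) lay above 0. Of the 525 genes that WT lowered, 0 rose and 11 fell (2.10%), with a median of -0.17 (0 and 41 unadjusted, 0 and 17 by DESeq2). The fit of 10 libraries gave 4 rises and 32 falls among them and the fit of the 4 libraries alone 7 and 62. Leaving out A457_G461del replicate 1, A457_G461del replicate 2, Block13del replicate 1 or Block13del replicate 2 gave 183, 184, 177 and 168 rises among the raised genes, and 4, 6, 5 and 4 falls among the lowered ones. The plot of cumulative shares shows the separation of the raised genes over their whole range and the small shift of the lowered ones.

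**Figure D2:**
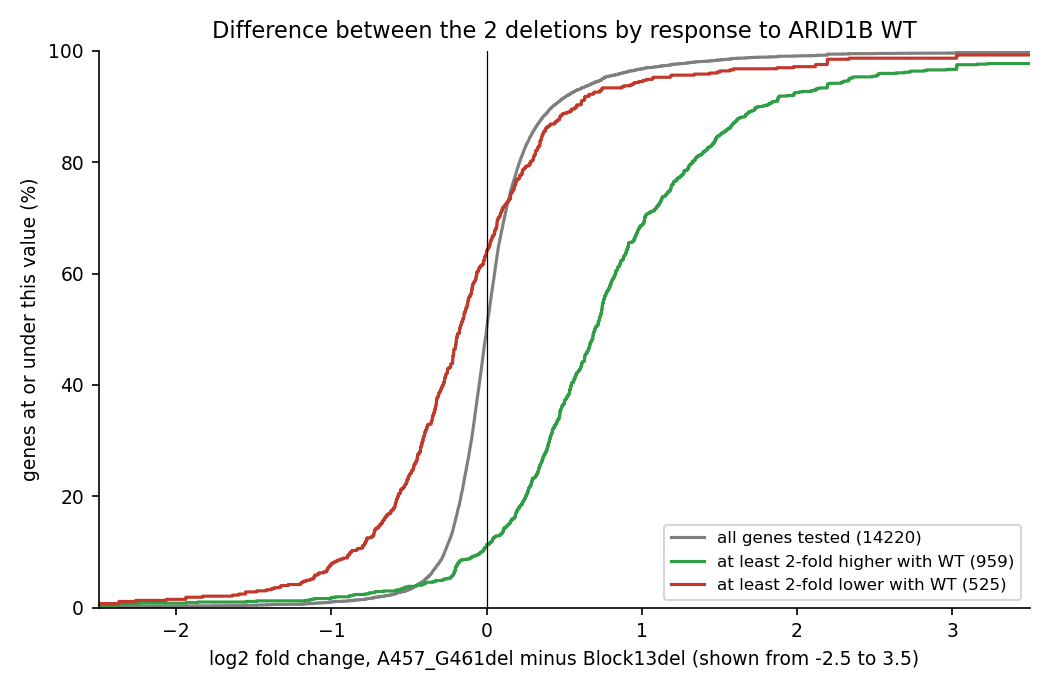
Cumulative share of genes (y axis, %) by log2 fold change of A457_G461del minus Block13del (x axis) for all 14220 genes tested (grey), 959 genes raised at least 2-fold by ARID1B WT (green) and 525 lowered at least 2-fold (red). The green curve crosses 50% at 0.70, the grey at 0.0 and the red at -0.17.

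Read the other way, 277 of the 510 genes that rose (54.3%) were raised at least 2-fold by WT, although such genes make up 6.74% of those tested. A further 203 (39.8%, against 12.5% of genes tested) were raised by WT by less than 2-fold, 28 (5.49%, against 56.9%) were not called with WT and 2 had fallen with it. Those 2, named after their values were seen, were NKD2, an antagonist of Wnt signalling, and CALCOCO2, an autophagy receptor gene. Of the 269 genes that fell, 231 (85.9%, against 20.2% of genes tested) had fallen with WT by less than 2-fold and 24 (8.92%, against 56.9%) were not called. A further 11 had fallen by at least 2-fold, and their share of 4.09% is near the 3.69% of all genes tested. The 3 that fell although WT raised them were CHI3L2, a chitinase-like gene, SCG2, a secretory granule gene, and TRIB1, a pseudokinase gene. The calls of NKD2 and TRIB1 were lost on leaving out any 1 of the 4 libraries (adjusted p = 0.0804 to 0.143 and 0.147 to 0.269, edgeR quasi-likelihood test). Those of CALCOCO2 and CHI3L2 were lost without 2 of the 4: CALCOCO2 without A457_G461del replicate 2 and without Block13del replicate 2 (0.169 and 0.127), CHI3L2 without replicate 1 of either deletion (0.0719 and 0.0604).

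Levels with Block13del were above those of the empty vector and Block9del in the median, and those with A457_G461del lay between Block13del and WT. Among genes raised by WT, 446 had an average log2 CPM of 1 or more over the 28 libraries. Their median level was 57.5% of the WT level with A457_G461del and 36.8% with Block13del. It was 30.4% with Block9del and 32.1% with the empty vector. The mean of A457_G461del was above that of Block13del in 436 of the 446 genes, and 244 rose in the test. The order empty vector, Block13del, A457_G461del, WT held for 338 genes, and with Block9del between the empty vector and Block13del for 226. The genes were chosen for being higher with WT than with the empty vector. That choice sets the ends of these orders beforehand and favours levels below WT in the other groups. The ARID1B RNA levels of the 5 groups have the order with Block9del between the empty vector and Block13del. The median levels above differ from it, with Block9del under the empty vector. These folds against the empty vector share its 4 libraries and are set side by side only: the median log2 fold change of the 446 genes was 1.01 with A457_G461del, 0.43 with Block13del and 1.67 with WT.

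**Figure D3:**
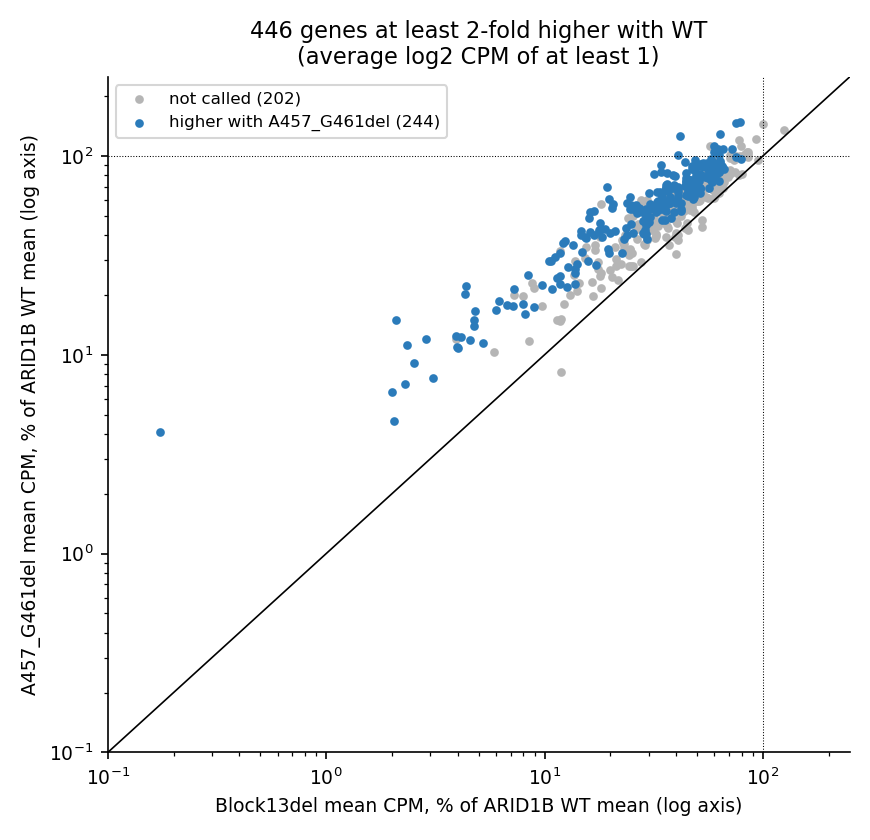
Each point is 1 of 446 genes raised at least 2-fold by ARID1B WT, with its mean CPM as a percentage of the WT mean for Block13del (x axis) and A457_G461del (y axis), both log axes. Most points lie above the diagonal of equal levels (436 of 446), 244 were called higher with A457_G461del (blue), and the dotted lines mark the WT level.

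The background for every count of called list members is the 3.59% of all genes tested that rose and the 1.89% that fell. Several lists hold many of the 959 genes raised by WT, of which 28.9% rose, so their counts are not separate from that result. Such genes were 19 of 30 tested matrix glycoprotein genes, 11 of 24 collagen genes and 11 of 26 integrin adhesion genes. They were also 9 of 16 smooth muscle and contractile genes and 9 of 23 YAP and TEAD genes, but 0 of 27 HOX genes. Genes of the extracellular matrix were among the larger differences. LAMB1, a laminin chain of basement membranes, stood at 55.1 and 53.3 CPM with A457_G461del and 31.4 and 30.7 with Block13del (log2 fold change 0.80 ± 0.07, edgeR adjusted p = 1.29e-06). SPARC, a collagen-binding matricellular protein gene, stood at 173 and 176 against 94.4 and 92.7 CPM (0.90 ± 0.11, adjusted p = 2.14e-05). MATN2, a matrilin gene of filamentous matrix networks, stood at 37.2 and 38.2 against 16.8 and 15.6 CPM (1.22 ± 0.10, adjusted p = 2.63e-07). In each of the 3 genes both A457_G461del libraries lay above both Block13del libraries, and WT lay higher still, at 159, 333 and 91.3 CPM. Elastin (ELN), the core of elastic fibres, had 19.6 and 21.5 CPM with A457_G461del and 7.19 and 10.9 with Block13del, all far below the 441 CPM of WT (1.17 ± 0.16, adjusted p = 0.000116). Of 30 tested matrix glycoprotein genes, 9 rose, 0 fell and 21 were not called, with a median log2 fold change of 0.56. Unadjusted, 14 were higher and 1 lower, and DESeq2 called 11 and 1. The count of 9 was 6 without replicate 1 of either deletion and 5 without replicate 2 of either. The calls of LAMB1, SPARC, MATN2 and ELN held without any 1 of the 4 libraries.

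**Figure D4:**
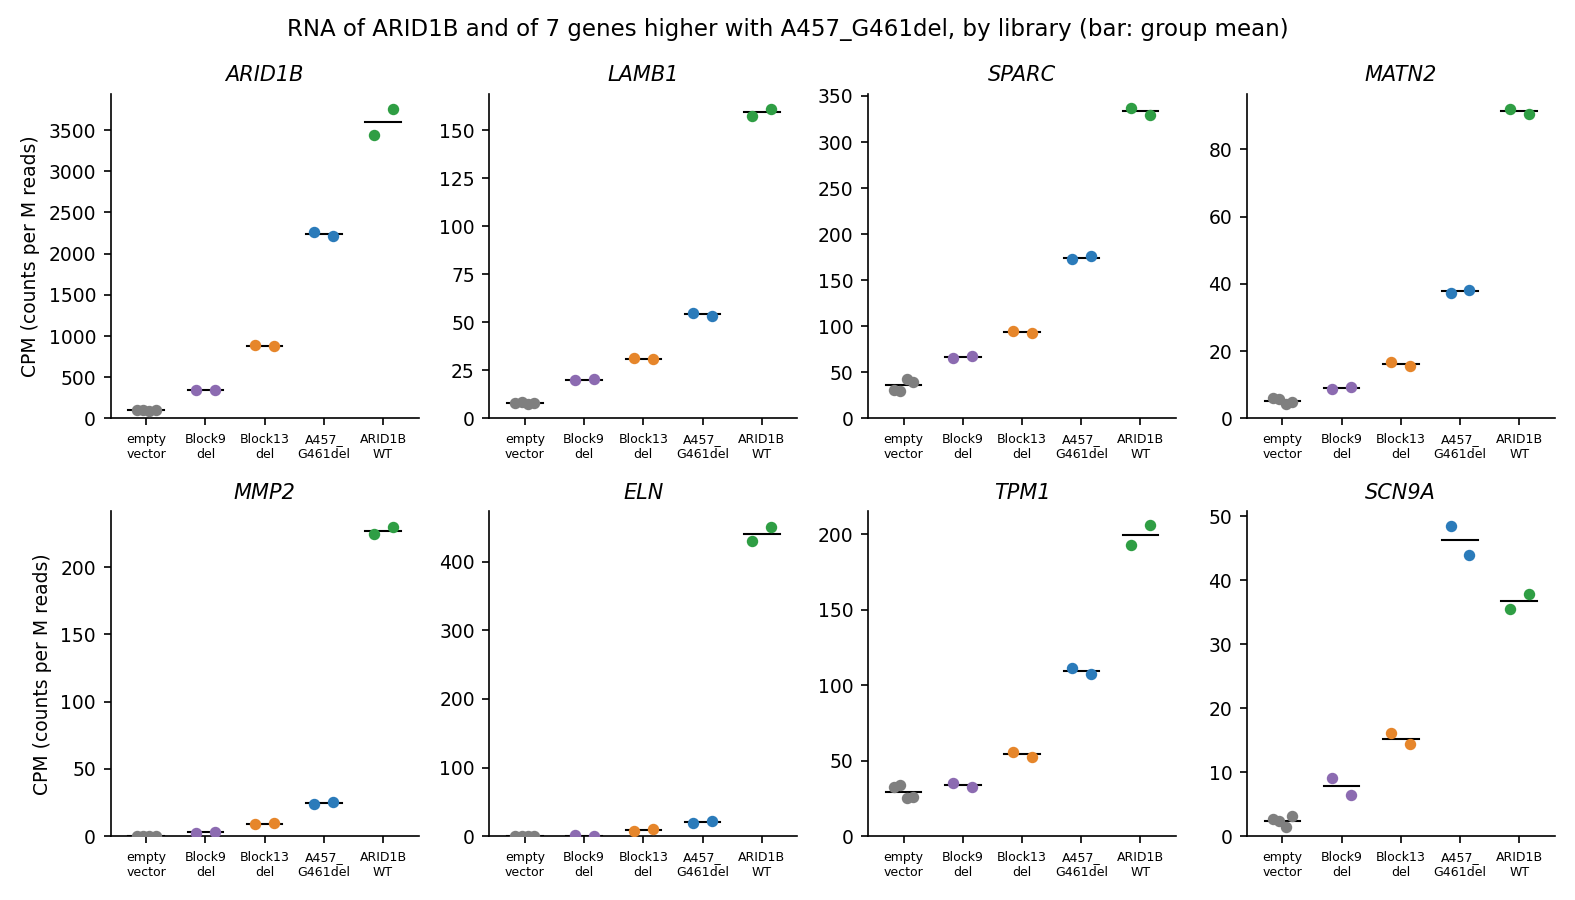
CPM by library (points, linear y axes from 0) and group mean (bars) of ARID1B and 7 genes that rose with A457_G461del relative to Block13del, in the empty vector (4 libraries), Block9del, Block13del, A457_G461del and ARID1B WT (2 each). In all 8 panels both A457_G461del points lie above both Block13del points, and in SCN9A they also lie above the WT points.

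Collagens followed in smaller numbers. Of 24 tested collagen genes, 6 rose, 0 fell and 18 were not called, against 3.59% and 1.89% of all genes, with a median of 0.45 (7 and 0 unadjusted, 6 and 0 by DESeq2). The abundant collagen gene COL1A2 was not called (2425 to 2438 CPM with A457_G461del and 2259 to 2403 with Block13del). Nor was COL3A1 (330 to 344 against 281 to 285 CPM). Of those called, COL1A1, a fibrillar collagen chain, had 3.67 and 3.88 CPM against 0.997 and 1.58 (1.52 ± 0.23, adjusted p = 0.000293). COL16A1, a fibril-associated collagen, had 3.38 and 3.41 against 1.26 and 1.04 CPM (1.57 ± 0.22, adjusted p = 0.000205), and COL12A1, another of that class, 2.0 and 2.08 against 0.944 and 0.705 CPM (1.32 ± 0.21, adjusted p = 0.00049). With WT these 3 genes stood at 27.1, 27.8 and 26.6 CPM, so A457_G461del gave 13.9, 12.2 and 7.65% of the WT level and Block13del 4.75, 4.13 and 3.10%. All 3 calls held without any 1 of the 4 libraries, while the count of 6 was 5 without either A457_G461del library and 4 without either Block13del library.

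Matrix proteases and crosslinkers split by member. MMP2, a gelatinase that cuts basement membrane collagen, had 23.8 and 25.6 CPM with A457_G461del and 8.87 and 9.46 with Block13del (1.43 ± 0.13, adjusted p = 1.53e-06). PLAU, the urokinase plasminogen activator, had 7.78 and 8.15 against 2.47 and 2.82 CPM (1.58 ± 0.17, adjusted p = 5.1e-06). LOXL2, which crosslinks collagen, had 35.5 and 36.7 against 17.0 and 17.0 CPM (1.08 ± 0.10, adjusted p = 1.1e-06). MMP16, a membrane-bound protease gene named after its values were seen, went the other way, with 116 and 116 against 168 and 154 CPM (-0.47, adjusted p = 0.0405). Its call was lost without any 1 of the 4 libraries (adjusted p = 0.0963 to 0.282), whereas the other 3 calls held. Of 20 tested genes of the class, 3 rose, 1 fell and 16 were not called. The median was 0.15.

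Genes of integrin adhesion and its link to actin gave 10 rises and no fall. Of 26 tested, 10 rose, 0 fell and 16 were not called, the median was 0.37, and 24 lay above 0 (14 and 0 unadjusted, 11 and 0 by DESeq2). ITGB5, an integrin chain that binds vitronectin, had 217 and 215 CPM with A457_G461del and 114 and 122 with Block13del (0.87 ± 0.07, adjusted p = 5.16e-07). PXN, the focal adhesion adaptor paxillin, had 131 and 126 against 66.1 and 76.4 CPM (0.85 ± 0.10, adjusted p = 1.74e-05), and its A457_G461del level was 86.3% of WT. ACTN1, an actin crosslinker, had 310.5 and 299 against 228 and 243 CPM (0.38 ± 0.06, adjusted p = 0.000289). No library of one deletion overlapped those of the other in these 3 genes, and the calls held without any 1 of them. The count of 10 was 6 without any 1 of the 4 libraries.

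CD44, the hyaluronan receptor, had the largest fitted rise of the genes named by size. All of these had an average log2 CPM of 1 or more over the 28 libraries, but CD44 lay below that level in all 4 compared. It passed through groups outside this comparison, as did SOST and CACNG4 below. So did at least PLAC8, RGS4 and IL13RA2, whose mean over the 4 compared libraries lay under that level. CD44 had 31 reads in the 2 libraries of A457_G461del (0.652 and 0.588 CPM) and 1 read in those of Block13del (0.0525 and 0 CPM). The ratio of normalized counts was 26.7, with a 95% counting interval of 4.45 to 1089 that covers counting error only. With WT the gene stood at 15.1 CPM, so both deletions left it under 5% of the WT level (4.09% and 0.173%). Few reads stand behind this value, yet its call held without any 1 of the 4 libraries.

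Other large rises were of genes with varied roles. ADORA1, the adenosine A1 receptor gene, had 27.3 and 29.1 CPM with A457_G461del and 7.24 and 8.46 with Block13del (1.84 ± 0.13, adjusted p = 6.4e-08). PLAC8, a small cysteine-rich protein gene, had 1.55 and 2.12 against 0.262 and 0.249 CPM (2.82 ± 0.33, adjusted p = 2.34e-05), and RGS4, a brake on G protein signalling, 2.04 and 2.78 against 0.577 and 0.373 CPM (2.36 ± 0.35, adjusted p = 0.000299). SLCO2A1, a prostaglandin transporter, PTPRO, a receptor tyrosine phosphatase, and TRABD2B, a membrane metalloprotease that acts on Wnt proteins, rose by 2.14, 2.09 and 1.68 on the log2 scale. In all 6 genes the WT level was above that of A457_G461del, and the calls held without any 1 of the 4 libraries. The rule for the 12 largest rises also gave SOST, AMIGO2, IL13RA2, CACNG4 and PLK2, with log2 fold changes of 1.69 to 2.28, whose calls depended on single libraries. SOST, a secreted Wnt inhibitor gene, CACNG4, a calcium channel subunit gene, and PLK2, a polo-like kinase gene, kept the call without 1 library only. Without the other 3 the adjusted p was 0.0544 to 0.129 for SOST (all but Block13del replicate 1), 0.0971 to 0.234 for CACNG4 (likewise) and 0.0582 to 0.0822 for PLK2 (all but A457_G461del replicate 1). AMIGO2, an adhesion gene of neurons, lost it without A457_G461del replicate 2 and without Block13del replicate 1 (0.0770 and 0.0974). IL13RA2, a decoy receptor gene, lost it without Block13del replicate 2 (0.127).

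Targets and partners of YAP and TEAD, the transcription factors at the end of the Hippo pathway, rose in part. Of 23 tested genes of this list, 10 rose, 0 fell and 13 were not called, and 21 lay above 0 with a median of 0.45 (15 and 0 unadjusted, 12 and 0 by DESeq2). ANKRD1, a nuclear ankyrin-repeat gene, had 3.42 and 3.41 CPM with A457_G461del and 1.47 and 1.54 with Block13del (1.18 ± 0.17, adjusted p = 0.000256). AXL, a receptor tyrosine kinase gene, had 6.44 and 6.85 against 3.36 and 3.73 CPM (0.90 ± 0.13, adjusted p = 0.000276), and TGFB2, a TGF-beta ligand gene, 19.8 and 18.9 against 12.2 and 11.2 CPM (0.73 ± 0.10, adjusted p = 0.000121). The replicates of each deletion were close in all 3 genes and the deletions did not overlap. The count of 10 was 6 without either A457_G461del library, 7 without Block13del replicate 1 and 5 without Block13del replicate 2.

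Of the smooth muscle and contractile genes, 2 of 16 rose and 0 fell, against 3.59% and 1.89% of all genes. The counts were 4 and 0 unadjusted and 3 and 0 by DESeq2, and the median was 0.29. Of the 16, 9 were among the 959 genes raised by WT, of which 28.9% rose. TPM1, a tropomyosin that stabilises actin filaments, had 111 and 107 CPM with A457_G461del and 56.0 and 52.4 with Block13del (1.01 ± 0.10, adjusted p = 2.91e-06). CALD1, an actin-binding regulator of contraction, had 396 and 393 against 325 and 303 CPM (0.33 ± 0.06, adjusted p = 0.00163). Both calls held without any 1 of the 4 libraries.

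Ligands, receptors and guidance molecules of several signalling pathways rose in small numbers, beside the 3.59% of all genes that rose and the 1.89% that fell. In the TGF-beta and BMP list 6 of 26 genes rose and 1 fell (median 0.04). TGFBR3, the co-receptor betaglycan, had 17.7 and 16.8 CPM with A457_G461del and 9.91 and 9.9989 with Block13del (0.79 ± 0.11, adjusted p = 0.000103). The gene that fell was ID2, an inhibitor of helix-loop-helix factors and a BMP target, at 78.8 and 81.7 against 117 and 117 CPM (-0.54 ± 0.06, adjusted p = 2.77e-05). In the Wnt list 6 of 29 rose and 1, the ligand gene WNT10B, fell (median 0.16). The receptors FZD4 and LGR4 rose by 0.64 ± 0.11 and 0.83 ± 0.15 on the log2 scale, LGR4 from 40.3 and 35.8 CPM with Block13del to 66.4 and 68.5 with A457_G461del. In the axon guidance list 7 of 32 rose and 1, the semaphorin gene SEMA6A, fell (median 0.21). The semaphorin gene SEMA3F, with the lowest adjusted p of that list, had 115 and 116 against 68.5 and 69.7 CPM (0.74 ± 0.06, adjusted p = 6.69e-07), and PLXNA2, of its receptor class, 7.42 and 7.09 against 3.67 and 3.73 CPM (0.97 ± 0.16, adjusted p = 0.000571). The largest rise of the list was that of another semaphorin gene, SEMA5B, at 2.28 and 2.78 against 0.734 and 0.871 CPM (1.64 ± 0.30, adjusted p = 0.00348), a call lost without Block13del replicate 1 (0.0525). The calls of TGFBR3, ID2, FZD4, LGR4, SEMA3F and PLXNA2 held without any 1 of the 4 libraries, and those of WNT10B and SEMA6A, both named after their values were seen, in no such fit. The counts of rises were 3 to 4 for each of the TGF-beta and Wnt lists without 1 library, and for axon guidance 6 and 3 without A457_G461del replicates 1 and 2 and 3 and 5 without those of Block13del.

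Ion channel and neuronal genes gave few calls with large differences. SCN9A, a voltage-gated sodium channel gene, had 48.4 and 44.0 CPM with A457_G461del and 16.2 and 14.3 with Block13del (1.60 ± 0.18, adjusted p = 1.02e-05). Its A457_G461del level was 126% of the WT level of 36.7 CPM. DCX, a microtubule protein gene of migrating neurons, had 7.21 and 6.38 against 2.26 and 2.20 CPM (1.61 ± 0.23, adjusted p = 0.000392), and VSTM2L, 17.6 and 18.3 against 6.35 and 6.56 CPM (1.47 ± 0.17, adjusted p = 1.9e-05). These 3 calls held without any 1 of the 4 libraries. Of 31 tested ion channel genes 5 rose and 0 fell (7 and 1 unadjusted, 6 and 0 by DESeq2), with a median of 0.02, and of 12 neuronal genes 3 rose and 0 fell (4 and 0 by either count), with a median of 0.36. Without 1 library the ion channel rises numbered 2 to 3 and the neuronal ones 2 to 3.

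Growth factor genes included some whose mean reached the WT mean with A457_G461del, though neither deletion was tested against WT. TGFA, a ligand of the EGF receptor, had 42.1 and 41.8 CPM with A457_G461del, 17.5 and 16.6 with Block13del and 41.6 with WT (1.30 ± 0.26, adjusted p = 0.0048). The call was lost without either Block13del library (adjusted p = 0.0535 without replicate 1 and 0.0674 without replicate 2). HBEGF, another ligand of that receptor, rose by 0.53 ± 0.09 and PDGFRB, a platelet-derived growth factor receptor gene, by 0.97 ± 0.16 on the log2 scale. Of 29 tested growth factor and receptor genes 5 rose and 0 fell (7 and 3 unadjusted, 5 and 1 by DESeq2), with 2 to 4 rises without 1 library, the lowest without Block13del replicate 1. In all, 23 of the 446 genes raised by WT stood at or above the WT mean with A457_G461del and 2 with Block13del. Chosen after their values were seen, these include ADAM9, a membrane protease gene that releases growth factors (384 and 384 CPM against 245 and 233 with Block13del and 378 with WT). They also include IL17RD, a feedback inhibitor of FGF signalling (438 and 422 against 258 and 235 CPM, with 397 in WT). The 2 that reached WT with Block13del were RHOU and SPACA6P, neither of which was called between the deletions (adjusted p = 0.845 and 0.301).

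At the other end, 7 of the 446 genes stood under 10% of WT with A457_G461del and 38 with Block13del. The 7 were PLK2, COL12A1, ELN, IL13RA2, CD44, CACNG4 and SUSD2, and 6 of them still rose relative to Block13del. SUSD2, a membrane glycoprotein gene, was the exception, with 0.489 and 0.392 CPM against 0.525 and 0.747 with Block13del and 5.36 with WT (-0.55, adjusted p = 0.546).

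Genes lower with A457_G461del differed by less. FCGR2B, the inhibitory Fc gamma receptor gene, had 4.24 and 5.33 CPM with A457_G461del and 9.65 and 10.7 with Block13del (-1.09 ± 0.25, adjusted p = 0.0121). The call was lost without A457_G461del replicate 1 and without Block13del replicate 2 (adjusted p = 0.161 and 0.10). SLC9A2, a sodium-proton exchanger gene, had 6.24 and 6.31 against 11.6 and 11.3 CPM (-0.87 ± 0.14, adjusted p = 0.00063). METTL7B, a methyltransferase gene, had 5.01 and 5.05 against 8.34 and 9.63 CPM (-0.84 ± 0.12, adjusted p = 0.000231). ARC, an immediate early gene of neurons, had 12.5 and 12.9 against 19.4 and 21.8 CPM (-0.70 ± 0.09, adjusted p = 0.000113), and TNFRSF21, a death receptor gene, 16.6 and 17.2 against 24.4 and 27.4 CPM (-0.62 ± 0.08, adjusted p = 4.52e-05). The calls of SLC9A2, METTL7B, ARC and TNFRSF21 held without any 1 of the 4 libraries. With WT these 5 genes stood at 3.84, 6.34, 1.65, 10.2 and 14.2 CPM, so in all 5 the A457_G461del mean was nearer to WT than the Block13del mean was. The other genes that fell by at least 2-fold were KIAA1024, the homeobox gene GSC and the small nucleolar RNA gene SNORD19B, each at 1.31 CPM or less in the 4 libraries and each dependent on single libraries.

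MYC, the growth-promoting transcription factor, had 104 and 110 CPM with A457_G461del, 163 and 167 with Block13del, 189 with Block9del, 93.3 with WT and 173 with the empty vector (-0.63 ± 0.14, adjusted p = 0.0103). The 2 deletions did not overlap, but the call was lost without any 1 of the 4 libraries (adjusted p = 0.0693 to 0.138). The same holds for CA11, FAM86JP, RIN1 and CT45A10, which fell by 0.59 to 0.67 on the log2 scale. PPARGC1B, a co-activator of mitochondrial genes, fell by 0.71 ± 0.14 and lost the call without A457_G461del replicate 2 and without Block13del replicate 1 (0.0872 and 0.0833). FCGR2A, an activating Fc receptor gene, fell by 0.69 ± 0.12 and lost it without A457_G461del replicate 2 (0.0676).

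**Figure D5:**
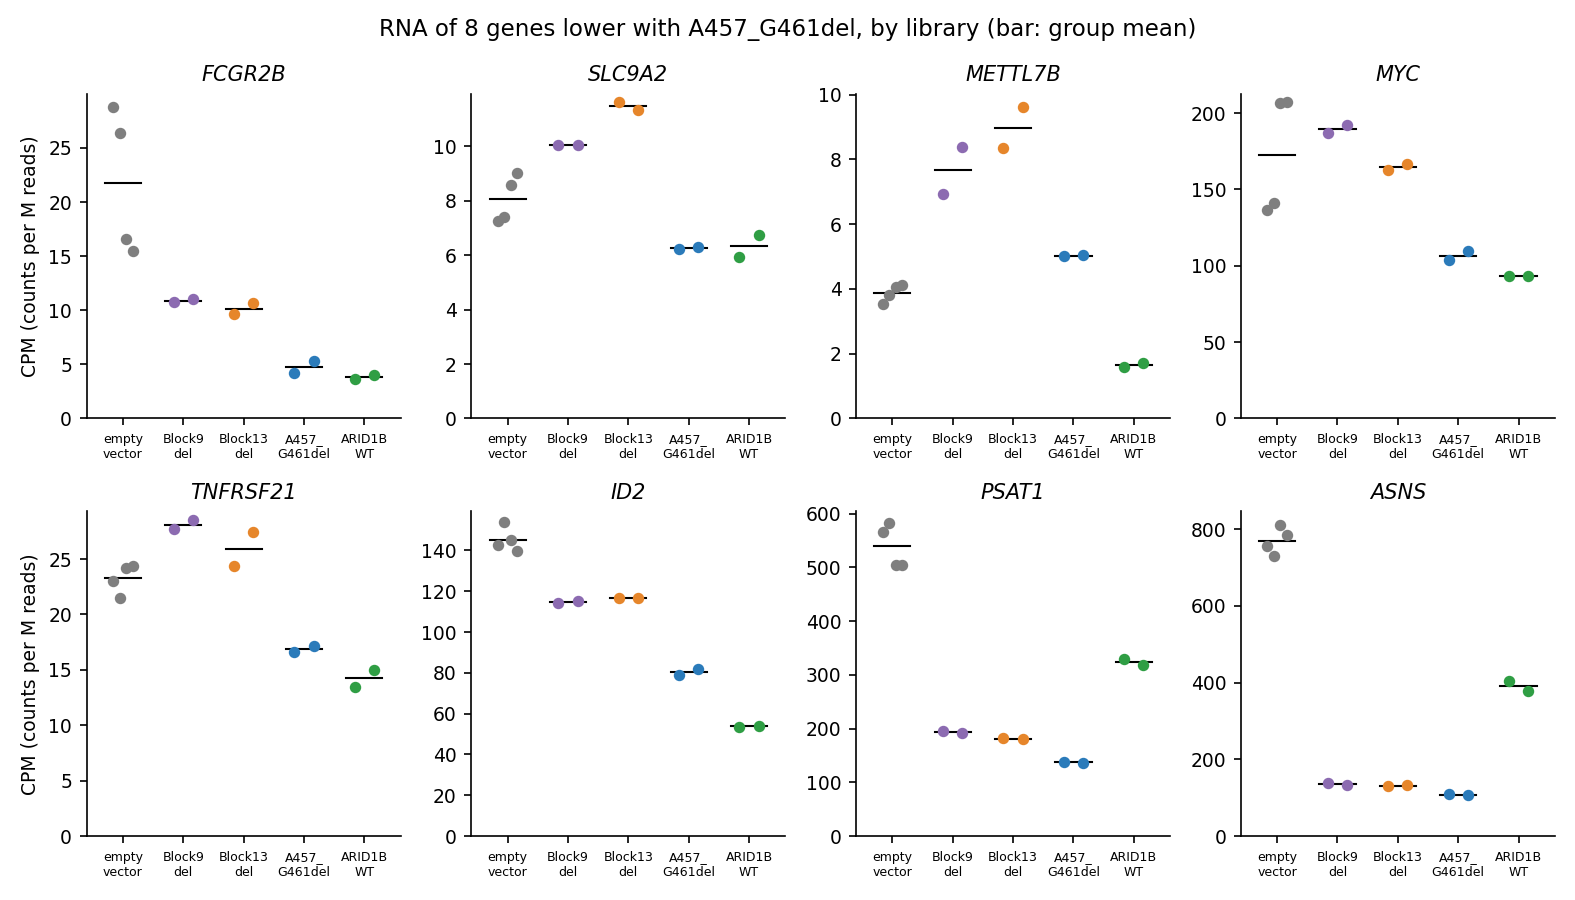
CPM by library (points, linear y axes from 0) and group mean (bars) of 8 genes that fell with A457_G461del relative to Block13del, in the same 5 groups. In all 8 panels both A457_G461del points lie below both Block13del points, while the WT mean lies above both deletions for PSAT1 and ASNS and below both for FCGR2B, METTL7B, MYC, TNFRSF21 and ID2.

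Genes of amino acid supply under the stress factor ATF4 were low with both deletions relative to the empty vector. This was not particular to these deletions: with Block9del PSAT1 and ASNS stood at 193 and 135 CPM. The WT and empty vector libraries set beside them have other strand profiles. PSAT1, an enzyme of serine synthesis, had 138 and 136 CPM with A457_G461del and 182 and 181 with Block13del, against 324 with WT and 539 with the empty vector (-0.40 ± 0.06 between the deletions, adjusted p = 0.000539). ASNS, asparagine synthetase, had 108 and 107 against 130 and 133 CPM, with 390 in WT and 770.0 in the empty vector (-0.29 ± 0.06, adjusted p = 0.00636). The call of PSAT1 held without any 1 library and that of ASNS without Block13del replicate 1 only (0.0669 to 0.0928 without the others). Of 34 tested genes of this list 0 rose and 5 fell, with a median of -0.11 (1 and 8 unadjusted, 0 and 6 by DESeq2). The count of 5 was 2 without Block13del replicate 1 and 1 without any other library. The remaining 3 were MTHFD2, of mitochondrial folate metabolism, and the amino acid transporter genes SLC7A5 and SLC7A1, whose calls were lost without any 1 library. Against the shared empty vector libraries the median log2 fold change of the list was -1.47 with A457_G461del and -1.30 with Block13del. ASS1, argininosuccinate synthase, was chosen after its values were seen because it was not called with WT against the empty vector. It had 58.2 and 58.7 CPM with A457_G461del and 30.4 and 31.7 with Block13del, 177 with WT and 174 with the empty vector (0.91, adjusted p = 3.45e-06 between the deletions), a call that held without any 1 library.

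Several lists gave no call in this comparison. Of 40 tested cell cycle genes edgeR called 0, yet 37 lay below 0 with a median of -0.20. Unadjusted, 0 were higher and 3 lower, DESeq2 called 0 and 1, the fit of the 10 libraries with the same strand profile called 0 and 13, and that of the 4 libraries alone 0 and 24. Of 57 cytosolic ribosomal protein genes 0 were called, with a median of 0.01, and none passed unadjusted or by DESeq2. Of 27 HOX genes 0 were called (1 higher unadjusted and by DESeq2, 4 higher and 1 lower in the fit of 10 libraries). Of 27 tested BAF subunit genes, ARID1B and BCL7A, an accessory subunit gene, rose, and 25 were not called. BCL7A had 58.9 and 60.3 CPM against 47.1 and 51.2 (0.28 ± 0.06, adjusted p = 0.0128), a call kept only without Block13del replicate 2 (0.0634 to 0.178 without each other library). ARID1A had 204 and 203 CPM with A457_G461del and 250 and 228 with Block13del (-0.23 ± 0.10, adjusted p = 0.221), and the ATPase genes SMARCA4 and SMARCA2 gave -0.07 ± 0.11 and 0.04 ± 0.07.

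The summed level of 8 epithelial markers was 24.1 to 24.2 CPM with A457_G461del and 14.5 to 15.6 with Block13del, within 10.8 to 98.9 over the series. KRT18, a keratin gene, carried most of it, at 21.0 to 21.1 against 12.9 to 14.5 CPM (0.62 ± 0.10, adjusted p = 0.000539). Of the 8 markers, 7 lay above 0, with a median log2 fold change of 1.46. Unadjusted, 5 were higher and 0 lower, but only KRT18 was called, and the others did not pass 0.940 CPM. The defining epithelial genes EPCAM and CDH1 did not pass 0.472 and 0.157 CPM in the 4 libraries. The sum of 8 haematopoietic markers was 4.03 to 4.11 against 2.52 to 2.78 CPM, nearly all of it CD68, a lysosomal gene, whose call was lost without any 1 library (adjusted p = 0.120 to 0.331). The part of these levels in the differences above was not tested.

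The cell cycle inhibitor gene CDKN1A shows what the choice of libraries can change. It had 57.2 and 56.7 CPM with A457_G461del and 26.3 and 27.7 with Block13del, without overlap, and was not called in the fit of 28 libraries (1.07 ± 0.63, adjusted p = 0.428). The empty vector libraries of that fit had 84.4, 85.7, 11.1 and 9.76 CPM. In the fit of 10 libraries with the same strand profile, which leaves the empty vector out, it was called (1.08 ± 0.08, adjusted p = 2.06e-05). PRLR, the prolactin receptor gene, was likewise called there (-0.97, adjusted p = 0.0179 against 0.188 in the fit of 28), with 2.57 and 2.78 CPM with A457_G461del and 5.67 and 4.98 with Block13del. Both genes were also called in the fit of the 4 libraries alone.

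Promoters are shown for the 3 genes whose window held a searched motif, of 16 genes among the 24 largest changes that had a promoter in the table. The windows are the 250 bases before the gene start, from RefSeq on GRCh38.p14 and read on the strand of the gene. Both strands were searched for the AP-1 motif TGANTCA, the TEAD motif GGAATG and the E-box CACGTG, which do not overlap in these windows. Capitals mark each match.
AMIGO2, chr12:47079952-47080201, minus strand, AP-1 match: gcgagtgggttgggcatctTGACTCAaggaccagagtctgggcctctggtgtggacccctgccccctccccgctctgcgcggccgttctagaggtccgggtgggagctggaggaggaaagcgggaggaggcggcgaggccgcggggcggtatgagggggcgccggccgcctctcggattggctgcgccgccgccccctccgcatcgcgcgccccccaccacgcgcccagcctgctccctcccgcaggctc
FCGR2B, chr1:161646993-161647242, plus strand, AP-1 match: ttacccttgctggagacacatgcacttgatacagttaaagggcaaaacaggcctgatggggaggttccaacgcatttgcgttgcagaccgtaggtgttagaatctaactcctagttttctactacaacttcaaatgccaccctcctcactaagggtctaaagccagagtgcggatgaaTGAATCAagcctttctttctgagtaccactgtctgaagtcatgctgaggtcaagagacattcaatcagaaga
TNFRSF21, chr6:47309906-47310155, minus strand, E-box match: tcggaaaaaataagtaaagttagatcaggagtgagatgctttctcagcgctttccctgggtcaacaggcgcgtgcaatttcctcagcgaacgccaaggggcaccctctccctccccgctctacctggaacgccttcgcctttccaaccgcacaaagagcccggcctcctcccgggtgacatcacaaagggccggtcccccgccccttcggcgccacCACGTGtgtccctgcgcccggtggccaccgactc
A promoter was found for 383 of the 510 genes that rose, 207 of the 269 that fell and 10223 of the 14220 tested. The AP-1 motif stood in 7.31% of promoters of genes that rose, 3.86% of those that fell and 3.92% of those tested. For the TEAD motif these shares were 12, 7.73 and 9.66%, and for the E-box 7.57, 15 and 8.86%. Over all 27305 promoters of the table they were 6.60% for AP-1, 11.9% for TEAD and 6.49% for the E-box. The shares describe letters in these windows and were not tested.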

How the data were processed

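RNA sequencing of polyadenylated RNA was available as 1 file per library. Per the submitters' processing notes, bcl2fastq, STAR 2.5.2b and Bowtie2 2.29 were used on genome build hg19. The role of each tool and the annotation are not given in the sources used here. For each of 26346 symbols the deposited files give whole-number read counts that the authors did not normalize. Column 4, the opposite-strand counts, was used, and 4 lines that name no gene were left out (27.5 to 28.4% of that column in the 4 libraries).

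One edgeR quasi-likelihood fit over 28 libraries in 13 groups gave each contrast (TMM factors, which CPM values use too, filterByExpr, two-sided F test, Benjamini-Hochberg over 14220 genes, called under 0.05). Each standard error is |log2 fold change| divided by √F. Leave-out fits with 1 library in a group assume that it varies like the other groups. Intervals and limits for few counts cover counting error only. The fit was tested on simulated data with seeded changes.

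Named were the 12 largest called changes each way, up to 3 called members per list, BAF subunits and examples of the ARID1B response. The largest changes needed an average log2 CPM of at least 1 over the 28 libraries, groups that did not overlap and annotated symbols. The members and the 38 gene lists were chosen with earlier results of these data known. Of 1077 list entries 1072 were found and 851 tested. Alternatives were DESeq2, RLE size factors, the unstranded column, other filters, fewer libraries and a replicate block. Python 3.11.15 was used with matplotlib 3.10.9, scipy 1.17.1, numpy 2.4.6 and pandas 2.3.3, and R 4.3.3 with DESeq2 1.42.0, limma 3.58.1 and edgeR 4.0.16.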

Additional observations from a re-analysis of the deposited data

Results flagged for a closer look

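LAMB1 in the empty vector had 1 library apart from the other 3, at 7.59 CPM against 8.19 to 8.32, a gap of 0.833 of the group's range, just past Dixon's critical value for 4 samples. It was 1 of 92 named genes examined, and chance alone sets apart about 1 group in 20 by this measure. The LAMB1 levels of the 2 deletions, 30.7 CPM and above, are not touched by it.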

How the results depend on the processing

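The higher RNA of ARID1B with A457_G461del kept its call in all alternatives, with log2 fold changes of 1.33 to 1.36 on leaving out a library. Called genes between the deletions numbered 779, against 777 with the unstranded column, 795 with RLE size factors, 538 without a filter, 841 at an average log2 CPM of at least 1 and 1027 with DESeq2 (756 shared). They numbered 3058 with only the groups compared, 1454 with 10 libraries and 316 to 359 on leaving out a library. Calls of at least 2-fold went from 118 to 181 with only the groups compared and 78 to 88 on leaving out a library. Against the empty vector, 5545 genes were called with A457_G461del (39.0%) and 5587 with Block13del (39.3%). These counts were 1587 and 788 with only the groups compared, 8974 and 8996 with empty vector replicates 1 and 2 alone, and 3303 to 6438 and 3037 to 6613 on leaving out a library. The cause was not tested. The replicate numbers share only a number (r = 0.0177 for deviations of same-numbered samples over 2 pairs). With a replicate block over 28 libraries 2784 genes were called between the deletions (192 at least 2-fold), 8991 and 9007 against the empty vector, and with a block over 4 libraries 3197 (183 at least 2-fold). The block over 28 libraries gave medians of 0.50 for genes raised by WT and -0.074 for genes lowered (20 rises and 77 falls among the latter). The median of raised genes was otherwise 0.67 with the unstranded column, 0.68 with RLE, 0.73 without a filter, 0.64 at an average log2 CPM of at least 1, 0.72 with only the groups compared, 0.96 for genes raised at least 4-fold and 0.66 to 0.73 on leaving out a library. That of lowered genes was -0.15 without a filter, -0.35 with only the groups compared, -0.30 with genes chosen against empty vector replicates 3 and 4, and -0.21 to -0.12 on leaving out a library. Of 85 named genes called, 75 kept the call in every setting that left no library out and 48 in all settings, and 37 lost it without at least 1 library. At 19.3 M reads in the shallowest library, differences of genes under 0.156 CPM are not detectable.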
